A study of Mus musculus with 21 samples.

Results

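The hearts described here came from CD1 mouse embryos with the genotype Chd4(Δflox/Δflox), in which both floxed alleles of Chd4 were recombined, at embryonic day (E) 10.5 and at E9.5. There were 3 null libraries at E10.5 and 5 at E9.5, chosen by their genotype and stage labels, which is 8 of the 21 samples of the series. Beside them stand flox hearts, CD1 embryos with the genotype Chd4(flox/flox) and unrecombined alleles, with 3 libraries at E10.5 and 5 at E9.5. Per the labels, all of these are polyadenylated RNA from cardiac tissue, and the series text counts them as biological replicates. The recombinase, the cells in which it acts, and whether hearts were pooled are not given in the sources used here. CHD4 peaks, from chromatin immunoprecipitation, come from wild-type CD1 hearts at E10.0 and none from null hearts.

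CHD4 is the nucleosome-remodelling ATPase of the NuRD complex, which couples remodelling to histone deacetylation and is known mainly for holding genes of other lineages silent. In the embryonic heart it is known for keeping skeletal and smooth muscle contractile genes low in cardiomyocytes. Between these stages a heart normally builds trabeculae, fills its cushions with mesenchyme that comes from the endocardium, gains an epicardial cover and its first macrophages, and changes its troponin isoforms. The comparison asks how hearts depleted of CHD4 differ between these 2 days, and where that difference departs from the one in flox hearts.

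Each stage was deposited as a table of its own, so stage and table cannot be told apart, and the stages also differ in the RNA put into library preparation (300 ng at E10.5 and 200 ng at E9.5). Levels are given as RPKM, reads per kilobase of gene and per 1e6 reads of the library, by the same rule in both tables, and that scaling was used unchanged. Both tables hold the same 24509 genes with the same lengths. Null libraries held 18.0 to 18.9 M reads at E10.5 and 17.1 to 20.1 M at E9.5, so depth was alike. A difference is a log2 difference of RPKM + 0.5, E10.5 minus E9.5, which understates changes of genes near 0.5 RPKM. A gene is called where limma's two-sided p, Benjamini-Hochberg adjusted over all genes tested, was under 0.05.

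The 3 null libraries at E10.5 were less alike than the others, with a median SD of log2 levels of 0.266 at E10.5 and 0.162 at E9.5. Replicate 3 at E10.5 stood apart in 3 ways. Erythroid genes took 10.1% of its reads, against 4.32% and 3.48% in the other two and 2.09 to 5.54% in the null libraries at E9.5. The mean log2 level of its longest genes minus that of its shortest (outer length quintiles) was -0.79, against -0.13 and -0.14 in replicates 1 and 2 and -0.12 to 0.04 in the E9.5 null libraries. It also held the highest macrophage level, 122 summed RPKM over the list, against 56.7 and 73.2 in replicates 1 and 2 and 8.5 to 44.2 at E9.5. Foregut and liver genes summed to 1648 and 1188 RPKM in replicates 2 and 3, to 43.2 in replicate 1 and to 6.0 to 27.6 at E9.5. A flox library was uneven in this list too. Flox E10.5 replicate 2 held 226.5, against 11.6 and 26.8 in flox E10.5 replicates 1 and 3 and 6.1 to 44.3 in flox E9.5 libraries. Many results are also given without null E10.5 replicate 3, though not every one that it changes. Those of the foregut and liver list are also given without both null E10.5 replicates 2 and 3.

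**Figure D1:**
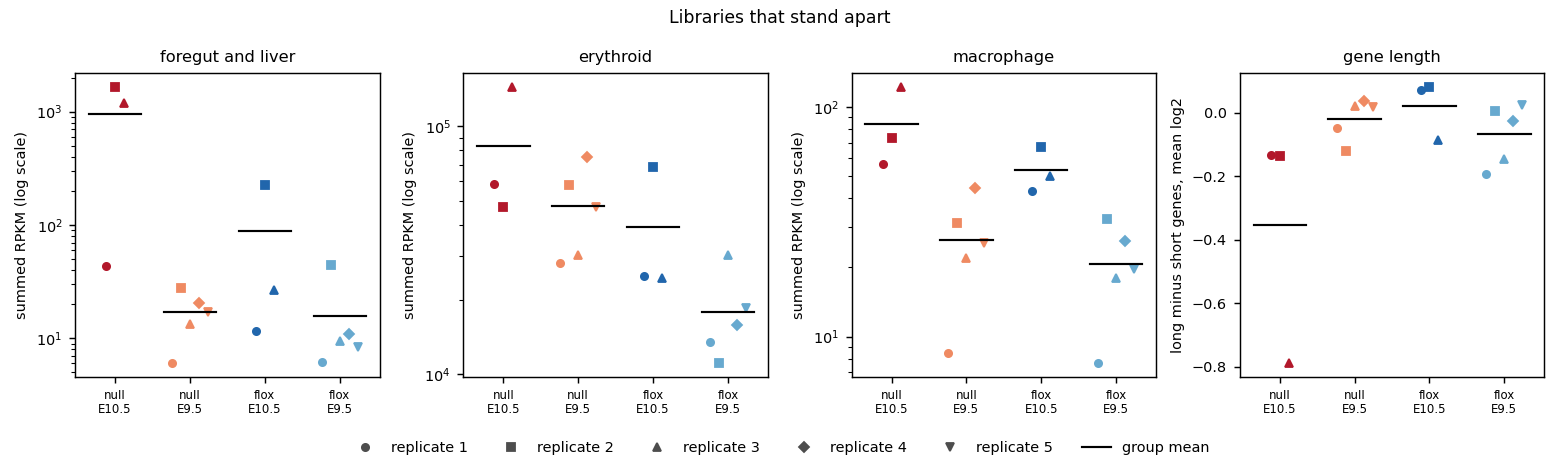
Each point is 1 library. The first 3 panels give the summed RPKM of the foregut and liver, erythroid and macrophage lists on a log axis, and the last gives the mean log2 level of the longest minus the shortest length quintile. Horizontal lines are group means. Null E10.5 replicates 2 and 3 have the highest liver sums (1648 and 1188), followed by flox E10.5 replicate 2 (226.5). Null E10.5 replicate 3 alone has low long genes (-0.79).

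Chd4 (chromosome 6, 125095980 to 125130591, mm10) held 48.2, 57.4 and 52.5 RPKM in null E10.5 hearts, against 48.8, 46.9, 45.4, 40.7 and 46.9 RPKM in null E9.5 hearts. These groups overlapped, and the difference of 0.20 (SE 0.0985) was not called (adjusted p = 0.205). In flox hearts it held 67.2 to 91.1 RPKM at E10.5, against 91.2 to 94.6 RPKM at E9.5, so every null library lay below every flox library. The values count the whole gene and include transcripts of recombined alleles and of cells that kept theirs. The tissue label held: all 8 cardiomyocyte markers were present in every null library, summing to 8480 to 11250 RPKM at E10.5 and 9849 to 12780 RPKM at E9.5.

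Of 13990 genes tested between null E10.5 and null E9.5 hearts, 1225 were called (8.76%), 812 of them higher (5.8%) and 413 lower (2.95%), 4125 had an unadjusted p under 0.05, and the median difference over all genes was 0.04. At least 2-fold changes made up 250 of the rises and 58 of the falls. Higher genes made up 66.3% of the calls, but 54.2% with libraries scaled to a common median, 44.6% with quantile normalization and 52.3% once the gene length trend of each library was removed (8.19% of genes called), so the balance of rises and falls depends on the scaling while no called gene changed direction. The number of calls also depends on single libraries. It was 729 (5.23% of genes tested, 557 higher and 172 lower) without E10.5 replicate 3, and 501, 348, 220 and 342 without E9.5 replicates 1, 2, 3 and 5. With each of the 8 libraries left out in turn, 158 of the higher and 43 of the lower genes stayed called every time, and such a gene is described here as held in every leave-out. That covers single libraries: with the erythroid level in the fit 113 genes were called. Of 113 called values of named genes, 27 kept their call in that fit, and its result is not given for every gene.

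**Figure D2:**
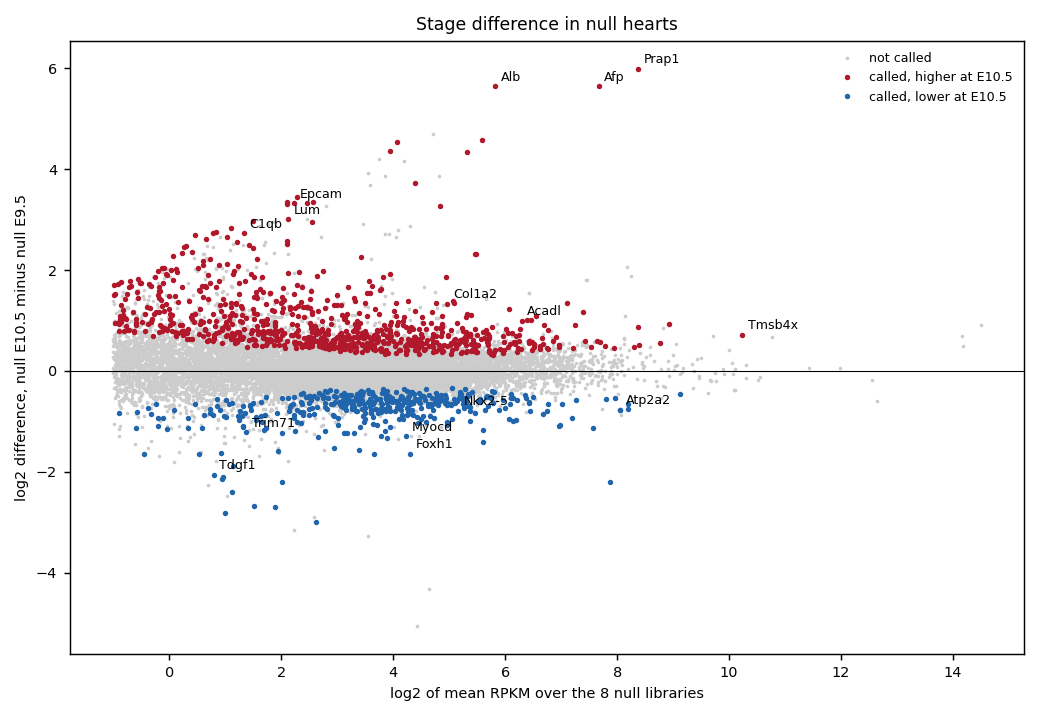
Each point is a tested gene, by its mean level over the 8 null libraries (log2 RPKM, horizontal axis) and its log2 difference between null E10.5 and null E9.5 hearts (vertical axis). Red marks the 812 genes called higher at E10.5 and blue the 413 called lower. Among the named genes, rises reach 6.0 in Prap1 and falls reach -2.06 in Tdgf1.

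Gene length moved with the stage difference. By length quintile, from short to long, its median ran 0.21, 0.12, 0.04, -0.02 and -0.12 in null hearts, 0.10, 0.07, 0.04, 0.03 and -0.01 without E10.5 replicate 3, and -0.03, 0.03, 0.05, 0.09 and 0.07 in flox hearts. Called rises had a median length of 1765 bp, called falls 4541 bp and all tested genes 2800 bp. Its part in any single result was not tested. With the trend removed, 95 of 113 called values of named genes kept their call. Cox6b1 and Fgg were among those that lost it (limma adjusted p = 0.0903 and 0.0556). A lost call is stated below for some genes only, so its absence does not mean that a call stayed.

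Of 22 measured cardiac transcription factors, which drive heart muscle genes, 4 fell in the later null hearts, none rose and 18 did not pass, with a list median of -0.35 (all genes 0.04). The share of all genes that fell was 2.95%, and 1.24% without E10.5 replicate 3, where 1 factor fell. None of the 4 fallen factors held in every leave-out. In bulk RNA, fewer cells of a type and less RNA per cell cannot be told apart. Myocd (chromosome 11, 65173608 to 65269989), the heart and smooth muscle co-activator of SRF, held 11.7, 12.2 and 5.81 RPKM in null E10.5 hearts, against 32.8, 20.7, 25.8, 20.2 and 21.6 RPKM in null E9.5 hearts. The groups did not overlap, as in 7.13% of all tested genes with every E10.5 library lower and 13.8% with every one higher, and the lowest value was that of E10.5 replicate 3 (difference -1.29, SE 0.246, adjusted p = 0.0206, and -0.97, adjusted p = 0.0322, without replicate 3). Its call ended without E9.5 replicate 3 (adjusted p = 0.0593). Srf itself, the MADS-box factor that binds CArG boxes, held 22.4, 24.3 and 21.1 RPKM at E10.5, against 44.5, 36.4, 39.5, 30.2 and 31.3 RPKM at E9.5. It fell by 0.67 (SE 0.137, adjusted p = 0.0242), a call that ended without E10.5 replicate 3 or E9.5 replicate 2 or 3 (adjusted p = 0.0559 to 0.0719). Nkx2-5, the homeodomain factor of the cardiac lineage, held 24.6, 22.2 and 25.2 RPKM at E10.5, against 58.2, 50.0, 40.6, 31.1 and 34.7 RPKM at E9.5. Every E10.5 library lay below every E9.5 library (-0.79, SE 0.192, adjusted p = 0.0375), and the call held only without E9.5 replicate 4, the other 7 leave-outs giving adjusted p = 0.0589 to 0.0873. Tbx5, a T-box factor of the atria and left ventricle, fell by 0.50 (adjusted p = 0.0386) and likewise kept its call in 1 of 8 leave-outs.

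Promoters of Srf and Nkx2-5 are shown because wild-type E10.0 hearts had a CHD4 peak over both in all 3 lists, and those of Acta1 and Atp2a1 because their stage difference departed from that of flox hearts, as given further on. They are RefSeq sequences on GRCm38.p6, the assembly of mm10, from 250 bases before to 50 after the start, all on the minus strand. Capitals mark matches, on either strand, to TATAAA or to the CArG box that SRF binds. The MEF2 site, which can contain TATAAA, was searched too and matched in none of the 4. The Srf promoter is chr17:46556113-46556412, under a peak at 46556193 to 46557543. The Nkx2-5 promoter is chr17:26841516-26841815, under a peak at 26841243 to 26842467. The Acta1 promoter is chr8:123894726-123895025 and the Atp2a1 promoter chr7:126463024-126463323, and neither carried a peak found in all 3 lists. Such a peak did lie within 5 kb of the Acta1 gene, and none within 5 kb of Atp2a1.
Srf: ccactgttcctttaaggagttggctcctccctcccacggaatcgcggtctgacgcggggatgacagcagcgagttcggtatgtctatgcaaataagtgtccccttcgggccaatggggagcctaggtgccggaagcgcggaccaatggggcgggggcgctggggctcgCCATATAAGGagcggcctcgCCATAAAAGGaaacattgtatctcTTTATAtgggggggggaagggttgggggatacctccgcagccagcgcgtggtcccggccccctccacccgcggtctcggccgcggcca
Nkx2-5: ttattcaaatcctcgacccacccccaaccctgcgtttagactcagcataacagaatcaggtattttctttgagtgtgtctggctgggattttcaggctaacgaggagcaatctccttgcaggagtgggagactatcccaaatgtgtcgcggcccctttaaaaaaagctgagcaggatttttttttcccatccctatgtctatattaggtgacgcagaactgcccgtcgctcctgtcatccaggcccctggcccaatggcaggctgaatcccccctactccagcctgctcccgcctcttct
Acta1: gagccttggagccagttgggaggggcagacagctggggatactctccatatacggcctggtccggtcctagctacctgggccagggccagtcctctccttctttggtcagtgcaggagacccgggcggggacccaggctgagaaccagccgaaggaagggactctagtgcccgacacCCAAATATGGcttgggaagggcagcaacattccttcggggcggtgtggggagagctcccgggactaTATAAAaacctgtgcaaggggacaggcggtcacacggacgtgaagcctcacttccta
Atp2a1: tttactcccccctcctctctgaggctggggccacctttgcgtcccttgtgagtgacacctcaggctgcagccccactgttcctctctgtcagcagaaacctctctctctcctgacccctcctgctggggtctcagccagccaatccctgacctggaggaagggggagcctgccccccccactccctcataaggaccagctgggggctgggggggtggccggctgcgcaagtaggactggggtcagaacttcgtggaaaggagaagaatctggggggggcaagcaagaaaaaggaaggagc
The window of Srf held 2 CArG boxes and 1 TATA match, and that of Acta1 held 1 of each. Those of Nkx2-5 and Atp2a1 held neither, which says only that these letters are not in these windows. Of 32851 RefSeq promoter windows of this length, 1.63% held a CArG box, 13.6% TATAAA and 3.19% a MEF2 site.

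Of 23 measured calcium handling and ion channel genes, 11 fell, 1 rose and 11 did not pass (list median -0.43), with 6 falls and no rise without E10.5 replicate 3 (median -0.30, beside 1.24% of all genes lower in that fit) and 10 falls once the length trend was removed (3.91% of all genes). In the fit of all 8 libraries with no trend removed, 2.95% of all genes fell. Fallen members of the list included Ryr2, Atp2a2, Slc8a1, Cacna1c, Hcn4, Kcnh2, Kcnj5, Jph2 and Gja5. Atp2a2, the calcium pump SERCA2 of the sarcoplasmic reticulum, held 188, 203 and 163 RPKM at E10.5, against 346, 276, 322, 306 and 321 RPKM at E9.5. The groups were well apart, and the fall of 0.77 (SE 0.112, adjusted p = 0.00802) held in every leave-out. Cacna1c, the pore of the L-type calcium channel, held 5.62, 4.80 and 4.03 RPKM at E10.5, against 9.28, 7.89, 8.23, 8.80 and 7.63 RPKM at E9.5, and its fall of 0.74 (SE 0.127, adjusted p = 0.0142) also held in every leave-out, but not with the erythroid level in the fit (adjusted p = 0.0995) or without both E10.5 replicates 2 and 3 (adjusted p = 0.0575). Jph2, which ties the cell membrane to the calcium store, held 47.4, 37.3 and 38.5 RPKM at E10.5, against 55.6 to 69.6 RPKM at E9.5. It fell by 0.63 (adjusted p = 0.0171), a call that ended without E9.5 replicate 3 (adjusted p = 0.0564). Ryr2, the calcium release channel, fell by 0.64 and lost its call without E9.5 replicate 3 or 5 (adjusted p = 0.0661 and 0.0526). Gja5, connexin 40 of fast-conducting and trabecular muscle, held 7.79, 10.9 and 10.6 RPKM at E10.5, against 15.4, 22.8, 18.3, 13.3 and 16.3 RPKM at E9.5 (-0.78, adjusted p = 0.0322), and its call held in 2 of 8 leave-outs, with adjusted p up to 0.0863. The 1 member that rose was Casq2, the cardiac calcium store protein.

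Of 27 tested cardiac sarcomere genes, 6 fell (Mybpc3, Ttn, Ldb3, Xirp1 and Nebl among them), beside 2.95% of all genes. None rose and 21 did not pass, with a median of -0.18 (all genes 0.04). Without E10.5 replicate 3, 5 fell (median -0.24), beside 1.24% of all genes. Ttn, the giant spring of the sarcomere, held 4.91, 4.60 and 4.04 RPKM at E10.5, against 14.1, 7.64, 10.7, 9.82 and 9.16 RPKM at E9.5. No library overlapped, and the fall of 1.08 (SE 0.176, adjusted p = 0.012) held in every leave-out, but not with the length trend removed (adjusted p = 0.0998), with the erythroid level in the fit (adjusted p = 0.0771) or without both E10.5 replicates 2 and 3 (adjusted p = 0.0655). Xirp1, an actin-bundling protein of intercalated discs, held 15.3, 18.4 and 15.9 RPKM at E10.5, against 27.7 to 39.0 RPKM at E9.5 (-0.94, SE 0.134, adjusted p = 0.00713). Ldb3, a Z-disc protein, held 50.4, 53.4 and 45.9 RPKM at E10.5, against 72.8 to 84.3 RPKM at E9.5 (-0.66, SE 0.0955, adjusted p = 0.00797). Both held in every leave-out. The falls of Mybpc3 and Nebl did not, and their calls remained in 6 and 3 of 8 leave-outs (adjusted p up to 0.0677 and 0.105). Myl2, the ventricular light chain, held 2406, 1674 and 2792 RPKM at E10.5, against 1227 to 1694 RPKM at E9.5, which overlapped (0.67, adjusted p = 0.0545).

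Of 16 chamber and trabecular genes, 4 fell (Gja5, Erbb2, Erbb4 and Mycn), 1 rose (Cited1) and 11 did not pass. This stands beside 2.95% of all genes lower and 5.8% higher. The list median was -0.19 (all genes 0.04). Without E10.5 replicate 3 there were 2 falls, beside 1.24% of all genes, and no rise. Erbb2, the co-receptor for the neuregulin signal that drives trabeculation, held 12.3, 12.5 and 11.2 RPKM at E10.5, against 17.0 to 20 RPKM at E9.5 (-0.59, SE 0.098, adjusted p = 0.0126), and Mycn, which supports growth of the myocardium, held 13.1, 15.9 and 12 RPKM at E10.5, against 23.8 to 27.7 RPKM at E9.5 (-0.92, SE 0.111, adjusted p = 0.00429). Both held in every leave-out. The neuregulin receptor Erbb4 kept its call in 2 of 8 leave-outs (adjusted p up to 0.101), and Cited1, a transcriptional co-regulator, in 3 of 8 (adjusted p up to 0.0707). Nppb, the stress-linked natriuretic peptide, held 468, 368 and 347 RPKM at E10.5, against 104, 158, 172, 502 and 149 RPKM at E9.5. E9.5 replicate 4 alone lay above the E10.5 values, and the gene was not called (1.08, adjusted p = 0.122).

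For skeletal muscle genes the calls are set beside 8.76% of all genes. Of 25 listed genes, 16 passed the filter and 1 rose (Tnnt3), 1 fell (Mybph) and 14 did not pass, with a median of 0.05 beside 0.04 for all genes. Without E10.5 replicate 3 none of the 16 was called, beside 5.23% of all genes. Tnnt3, the fast skeletal troponin T, held 99.1, 72.3 and 140 RPKM at E10.5, against 20.9, 50.0, 41.8, 59.2 and 52.6 RPKM at E9.5 (1.23, SE 0.329, adjusted p = 0.0487). The call held in 3 of 8 leave-outs (adjusted p up to 0.129) and ended with the length trend removed (adjusted p = 0.0848). Tnni2, fast troponin I, held 166, 103 and 185 RPKM at E10.5, against 47.2 to 127 RPKM at E9.5, and Tnnc2, fast troponin C, 55.1, 53.2 and 104 RPKM at E10.5, against 38.4 to 68.0 RPKM at E9.5. Both overlapped and neither was called (adjusted p = 0.116 and 0.299). Acta1, skeletal actin, held 989, 696 and 894 RPKM at E10.5, against 881, 877, 913, 926 and 718 RPKM at E9.5, a difference of -0.01 (SE 0.144, adjusted p = 0.958). Of 12 smooth muscle contractile genes, Actg2 rose, Tagln fell and 10 did not pass (median -0.16). Without E10.5 replicate 3, 2 of them rose and 1 fell, beside 4% and 1.24% of all genes. Actg2, enteric smooth muscle actin, held 7.77, 11.3 and 8.62 RPKM at E10.5, against 3.08 to 5.44 RPKM at E9.5 (1.17, SE 0.200, adjusted p = 0.0142, held in every leave-out). Myh11, the smooth muscle myosin, held 8.77, 8.80 and 8.54 RPKM at E10.5, against 7.72 to 10.9 RPKM at E9.5 (-0.05, adjusted p = 0.808).

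Ratios of paralogs within a library were taken on RPKM + 0.5. The scaling of libraries cancels in them except where a member lies near or below 0.5 RPKM. Across 10 pairs, exact permutation tests of 3 against 5 libraries (two-sided) cannot give a p under 0.0357, and adjusted over the 10 pairs none passed, so directions are given with their overlap only. The log2 ratio of Tnnt3 to its cardiac paralog Tnnt2 was -3.25, -3.29 and -3.09 at E10.5, against -5.61, -4.33, -4.58, -3.76 and -4.19 at E9.5, 1.28 higher with no overlap (exact p = 0.0357, adjusted 0.0595). Tnni2 over Tnni1, the slow troponin I of the embryonic heart, was 1.23 higher, and 0.82 higher in flox hearts with the same p. Tnnc2 over Tnnc1 was 0.78 higher with no overlap and the same p, and -0.19 in flox hearts. The ratio of Tnnt3 to Tnnt2 was 0.28 higher in flox hearts (exact p = 0.143). Tnni3, the adult cardiac troponin I, over Tnni1 was 0.71 higher in null hearts and 0.70 higher in flox hearts. Casq1 over Casq2, skeletal over cardiac calsequestrin, was 1.09 lower in null hearts and 1.96 lower in flox hearts. Acta1 over Actc1, the cardiac actin, was -2.53, -2.80 and -2.74 at E10.5, against -3.03 to -2.73 at E9.5, and overlapped (exact p = 0.25).

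The largest falls among the named genes were those of Tdgf1 and Foxh1. Tdgf1, the Nodal co-receptor Cripto, held 0.144, 0.248 and 0.0572 RPKM at E10.5, against 6.53, 2.35, 2.52, 0.974 and 1.07 RPKM at E9.5 (-2.06, SE 0.454, adjusted p = 0.0292). E9.5 replicate 1 was the highest null library, and the call held in 4 of 8 leave-outs (adjusted p up to 0.0766). Foxh1, the forkhead partner of SMADs in Nodal signalling, held 7.33, 7.57 and 8.42 RPKM at E10.5, against 46.8, 27.5, 23.8, 17.6 and 18.7 RPKM at E9.5. It fell by 1.64 (SE 0.275, adjusted p = 0.0135) and held in every leave-out, but not with the erythroid level in the fit (-1.51, adjusted p = 0.101) or without both E10.5 replicates 2 and 3 (adjusted p = 0.0592). Of the 12 genes of the heterochronic and let-7 axis, which marks early developmental time, 3 fell (Trim71, Arid3b and Mycn), none rose and 9 did not pass (median -0.43, and -0.36 with 1 fall without E10.5 replicate 3). The share of all genes that fell was 2.95%, with a median of 0.04 over all genes. Trim71, the let-7-repressed RNA-binding ubiquitin ligase, held 0.674, 2.50 and 0.731 RPKM at E10.5, against 5.08, 3.15, 3.31, 2.62 and 2.70 RPKM at E9.5 (-1.21, adjusted p = 0.0471, called in 2 of 8 leave-outs, up to 0.121). Lin28a, which blocks let-7 maturation, held 5.54, 12.7 and 10.4 RPKM at E10.5, against 56.2, 21.3, 22.6, 11 and 20.6 RPKM at E9.5. It overlapped and was not called (-1.29, adjusted p = 0.092).

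Other genes lower in every E10.5 null library than in every E9.5 one included the adenylyl cyclase Adcy1 (2.07, 2.95 and 2.25 RPKM at E10.5, against 5.60 to 6.87 RPKM at E9.5, difference -1.19, adjusted p = 0.00353), the translational regulator Cpeb2 (4.47, 7.10 and 4.18, against 11.2 to 13.8 RPKM, -1.22, adjusted p = 0.00569) and the cyclin Ccnd2 (69.3, 101 and 58.2, against 128 to 177 RPKM, -1.07, adjusted p = 0.012). These 3, Guca1b (-1.62) and Aldoart2 (-1.20) held in every leave-out. With the erythroid level in the fit, Guca1b and Aldoart2 lost their calls (adjusted p = 0.0737 and 0.0586). Nptx2 and Slfn5os fell by 1.29 and 1.17 but lost their calls without E9.5 replicate 3 (adjusted p = 0.0548 and 0.0677), Slfn5os also without E9.5 replicate 2 or 5. Hapln3 (-1.24) and Prtg (-1.22) kept theirs in 2 and 4 of 8 leave-outs, with adjusted p up to 0.096 and 0.0944. Slfn5os is antisense to another gene, and as no source used here says whether counting used strand, reads of overlapping genes cannot be separated.

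Some matrix and mesenchyme genes were called in each direction. Of 22 cushion mesenchyme and fibroblast genes, 4 rose (Col1a1, Col1a2, Lum and Snai2), 1 fell (Has2) and 17 did not pass, with a median of 0.63, or 0.77 without E10.5 replicate 3. This stands beside 5.8% of all genes higher and 2.95% lower. Lum, the collagen-binding proteoglycan lumican, held 5.06, 13.5 and 12.7 RPKM at E10.5, against 0.759, 0.934, 0.650, 0.671 and 0.752 RPKM at E9.5. It rose by 3.01 (SE 0.280, adjusted p = 0.00205). Col1a2, a type I collagen chain, held 47.6, 49.2 and 52.7 RPKM at E10.5, against 11, 20.1, 21.0, 25.3 and 23.6 RPKM at E9.5 (1.33, SE 0.234, adjusted p = 0.0158). Col1a2 lost its call with the erythroid level in the fit (adjusted p = 0.113) and without both E10.5 replicates 2 and 3 (adjusted p = 0.0774). Lum and Col1a2 held with each single library left out, as did Mgp, the matrix Gla protein, a gene chosen after its values were seen (8.39, 5.87 and 4.71 RPKM at E10.5, against 0.597 to 1.01 RPKM at E9.5, adjusted p = 0.00205). Snai2, a factor of epithelial-to-mesenchymal change, held 11.8, 8.12 and 7.03 RPKM at E10.5, against 1.90 to 4.38 RPKM at E9.5 (1.27, adjusted p = 0.0208, and 0.0574 without E9.5 replicate 3). Col1a1 kept its call in 2 of 8 leave-outs (adjusted p up to 0.0778). Has2, the hyaluronan synthase that makes cushion jelly, held 10.5, 15.3 and 8.13 RPKM at E10.5, against 25.6, 22.1, 23.8, 14.9 and 24.1 RPKM at E9.5, and fell by 0.96 with 1 library of overlap (adjusted p = 0.0322, in 2 of 8 leave-outs, up to 0.084).

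Macrophage genes were measured at low levels. Of 15 in the table, 11 passed the filter, 8 rose, none fell and 3 did not pass, beside 5.8% of all genes higher. Of the 11, 6 averaged under 0.5 RPKM at E9.5 and so passed only through E10.5, which makes the count no measure of the whole list. C1qb, a complement chain made by macrophages, held 3.72, 5.75 and 8.40 RPKM at E10.5, against 0.192, 0.775, 0.659, 0.656 and 0.0949 RPKM at E9.5 (2.73, SE 0.323, adjusted p = 0.0039). Csf1r, the receptor for the macrophage growth factor, held 2.25, 4.30 and 3.32 RPKM at E10.5, against 0.606 to 1.29 RPKM at E9.5 (1.31, adjusted p = 0.0169). Lyz2, lysozyme, held 8.22, 8.80 and 9.60 RPKM at E10.5, against 1.49 to 3.22 RPKM at E9.5 (1.70, adjusted p = 0.00528). All 3 E10.5 libraries lay above all E9.5 libraries, and 6 members (Csf1r, Cx3cr1, C1qa, C1qb, C1qc and Lyz2) held in every leave-out. Without E10.5 replicate 3, the library with the highest macrophage sum, 6 members rose.

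Of 18 endothelial and endocardial genes, 6 fell (Cdh5, Tie1, Nfatc1, Eng, Nos3 and Sox18), 2 rose (Emcn and Robo4) and 10 did not pass. The median was -0.32 (all genes 0.04), and 2.95% of all genes fell and 5.8% rose. Without E10.5 replicate 3 there were 4 falls and no rise (median -0.19), beside 1.24% of all genes lower. Nos3, the endothelial nitric oxide synthase, held 8.31, 8.08 and 8.08 RPKM at E10.5, against 17.2, 14.8, 16.2, 11.1 and 13.2 RPKM at E9.5 (-0.78, SE 0.143, adjusted p = 0.0188, and 0.0576 without E9.5 replicate 3). Eng, a TGF-beta co-receptor, fell by 0.55 and lost its call without E9.5 replicate 2, 3 or 5 (adjusted p up to 0.0677). Emcn, a sialomucin of venous endothelium and endocardium, held 60.8, 43.3 and 53.2 RPKM at E10.5, against 22.2, 33.5, 32.8, 35.0 and 34.4 RPKM at E9.5 (0.73, adjusted p = 0.0343, called in 3 of 8 leave-outs and not with the length trend removed, adjusted p = 0.091). Of 13 tested epicardial genes 1 rose, Gpm6a (0.88, adjusted p = 0.0359, called in 2 of 8 leave-outs), and 12 did not pass (median 0.40). Without E10.5 replicate 3 none of the 13 was called. The epicardial factors Wt1 and Tbx18 held 18.3 to 23.6 and 16.8 to 31.0 RPKM at E10.5, against 7.03 to 22.9 and 16.8 to 34.0 RPKM at E9.5.

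Genes of liver, gut epithelium and yolk sac were uneven between the null E10.5 libraries. Of 16 foregut and liver genes, 15 passed the filter, 8 of these only through E10.5, and 8 rose (Afp, Alb, Foxa1, Foxa2, Trf, Epcam, Cdh1 and Fgg), but 3 of 15 without E10.5 replicate 3. The share of all genes that rose was 5.8%, or 4% without that library. Alb, serum albumin, held 4.85, 361 and 83.4 RPKM at E10.5, against 0, 0, 1.17, 2.80 and 0.614 RPKM at E9.5, and Afp, alpha-fetoprotein of liver and yolk sac, 12, 865 and 728 RPKM at E10.5, against 0.0735 to 9.80 RPKM at E9.5. E10.5 replicate 1 was far below the other two in both, and without replicate 3 neither was called (adjusted p = 0.0665 and 0.11), nor without both replicates 2 and 3 (2.30 and 1.65, adjusted p = 0.151 and 0.422). Prap1 and Guca2b, best known from intestinal epithelium, were highest by far in replicate 3, with replicate 2 near replicate 1. Prap1 held 22.5, 68.9 and 2559 RPKM at E10.5, against 0.242 to 8.46 RPKM at E9.5. Guca2b held 2.97, 7.45 and 371 RPKM at E10.5, against 0.167 to 0.896 RPKM at E9.5. A flox library at E9.5, replicate 3, also held both, Prap1 at 126.5 and Guca2b at 7.25 RPKM. The other flox libraries of both stages held 1.36 to 7.26 and 0.078 to 0.825 RPKM. In null hearts Prap1 was called at 6.0 with E10.5 replicate 3 and at 3.99 without it (adjusted p = 0.0299 and 0.0393). It lost its call without null E9.5 replicate 1, 3 or 5 (adjusted p up to 0.0754). Without both null E10.5 replicates 2 and 3 its difference was 3.20, which rests on E10.5 replicate 1 alone. With the erythroid level in the fit Prap1 was not called (3.46, adjusted p = 0.115). From this list, 3 epithelial or endodermal genes held in every leave-out. Epcam, an adhesion molecule of epithelia, held 3.95, 9.42 and 21.6 RPKM at E10.5, against 0.267 to 0.955 RPKM at E9.5 (3.32, SE 0.439, adjusted p = 0.00528, and 2.17, adjusted p = 0.0265, without both replicates 2 and 3). Cdh1, E-cadherin, held 2.49, 2.77 and 7.71 RPKM at E10.5, against 0.046 to 0.319 RPKM at E9.5 (2.74, adjusted p = 0.0039, and 2.21, adjusted p = 0.0151, without both), and Foxa1, an endodermal forkhead factor, 2.54, 5.57 and 0.845 RPKM at E10.5, against 0 to 0.252 RPKM at E9.5 (2.34, adjusted p = 0.0154).

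Among single genes best known from placenta or decidua, Prl3b1, a placental prolactin-family hormone, held 2.62, 9.67 and 3.78 RPKM at E10.5, against 0.063 to 0.382 RPKM at E9.5 (2.83, SE 0.345, adjusted p = 0.00438). Gzmd, Gzmf and Gzmg, granzymes of uterine natural killer cells that were chosen after their values were seen, held 1.93 to 6.81 RPKM at E10.5, against 0 to 0.714 RPKM at E9.5, with adjusted p of 0.0039 to 0.00711. All 4 held in every leave-out. Prl3b1 lay below 0.5 RPKM in every E9.5 library, so it passed the filter only through E10.5, the group where it was high. The granzymes lay near or below that level at E9.5. Being called is thus no independent sign of a rise for such genes. The tissue label gives heart alone, and what part cells from outside the heart have in these results was not tested. Of 19 tested erythroid genes, Hba-a1 and Hba-a2, adult alpha globins that share nearly all their sequence and so cannot be counted apart, rose (2.32 and 2.31), and 17 did not pass (median 0.58, or 0.24 without E10.5 replicate 3). The share of all genes that rose was 5.8%. The share of reads on erythroid genes was 5.98 ± 3.63% at E10.5 and 3.53 ± 1.44% at E9.5 (SD, n = 3 and 5, exact permutation p = 0.25, two-sided).

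Genes of energy metabolism were called as follows, beside 5.8% of all genes higher and 2.95% lower. Of 22 respiratory chain genes, 3 rose (Ndufb5, Cox5b and Cox8b) and 19 did not pass, none rose without E10.5 replicate 3, and with the length trend removed 1 rose and 3 fell. Of 18 tested genes of fatty acid oxidation, 2 rose and 16 did not pass (median 0.18). Acadl, the long-chain acyl-CoA dehydrogenase, held 130, 96.5 and 116 RPKM at E10.5, against 40.2, 56.7, 59.6, 65.3 and 64.9 RPKM at E9.5 (1.0, SE 0.170, adjusted p = 0.0142, held in every leave-out). Fabp3, the heart fatty acid carrier, held 22.6, 16.8 and 26.9 RPKM at E10.5, against 8.46 to 12.7 RPKM at E9.5 (0.92, adjusted p = 0.0209, and 0.059 without E9.5 replicate 3). Of 22 glycolysis and hypoxia genes, Eno1 and Gapdh rose and 20 did not pass (median 0.27, or 0.51 without E10.5 replicate 3). Both have many near-identical copies, and their levels were low here (12.2 to 20.1 and 3.24 to 5.44 RPKM at E10.5, against 5.95 to 9.31 and 1.61 to 2.44 RPKM at E9.5), so their reads are uncertain. Ndrg1, a hypoxia-induced gene, held 65.6, 17.9 and 12.3 RPKM at E10.5, against 1.84, 2.22, 1.58, 29.1 and 2.04 RPKM at E9.5. E9.5 replicate 4 stood with the E10.5 libraries, and it was not called (2.65, adjusted p = 0.0844).

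The lists that follow stand beside 5.8% of all genes higher and 2.95% lower, or 4% and 1.24% without E10.5 replicate 3. Of 25 cell cycle genes, Pcna and Mki67 rose, Ccnd2 fell and 22 did not pass (median -0.03). Pcna, the DNA polymerase clamp, held 23.0, 27.7 and 49.5 RPKM at E10.5, against 12.4 to 15.0 RPKM at E9.5 (1.19, adjusted p = 0.0172, and 0.0522 without E9.5 replicate 3), while Mki67 kept its call in 1 of 8 leave-outs. Of 15 p53 targets, Perp, a desmosomal p53 target, rose by 0.90 and held in every leave-out, Zmat3 fell by 0.54 (called in 4 of 8) and 13 did not pass. None of 14 tested immediate early and heat shock genes was called, and none of 9 neuronal and neural crest genes. Without E10.5 replicate 3, 1 of the 14 fell. Among 15 NuRD and CHD subunits, Hdac1 and Mbd2 rose, Gatad2a fell and 12 did not pass. Without E10.5 replicate 3, 1 of the 15 rose and none fell. Hdac1, a histone deacetylase of NuRD, held 10.9, 12.6 and 15.6 RPKM at E10.5, against 4.83 to 7.57 RPKM at E9.5 (1.03, SE 0.160, adjusted p = 0.0102, held in every leave-out). Mbd2 and Gatad2a kept their calls in 2 of 8 leave-outs each (adjusted p up to 0.107 and 0.0853).

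By difference of mean RPKM, the largest called rises beside Prap1 and Afp were in Tmsb4x, the actin-binding thymosin beta 4 (1587, 1304 and 1896 RPKM at E10.5, against 719 to 1072 RPKM at E9.5), Eef1a1, the translation elongation factor (477, 358 and 560, against 236 to 273 RPKM), Cox6b1 and Rpl14-ps1, which shares its sequence with Rpl14. Only Eef1a1 (0.88, adjusted p = 0.0117) held in every leave-out, but not with the erythroid level in the fit (adjusted p = 0.0771). Tmsb4x (0.72) kept its call in 2 of 8 and lost it with the length trend removed (adjusted p = 0.116). The largest called falls by level were Fn1, fibronectin (248, 170 and 143 RPKM at E10.5, against 271 to 357 RPKM at E9.5, called in 3 of 8 leave-outs), Atp2a2, Tagln, Igf2r, Igfbp5 and the ribosomal precursor Rn45s, a repeat whose reads may be shared. Hspg2, perlecan of the basement membrane, fell by 1.08 (24.2, 18.6 and 13.2 RPKM at E10.5, against 34.9 to 42.2 RPKM at E9.5, adjusted p = 0.0104) and held in every leave-out.

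**Figure D3:**
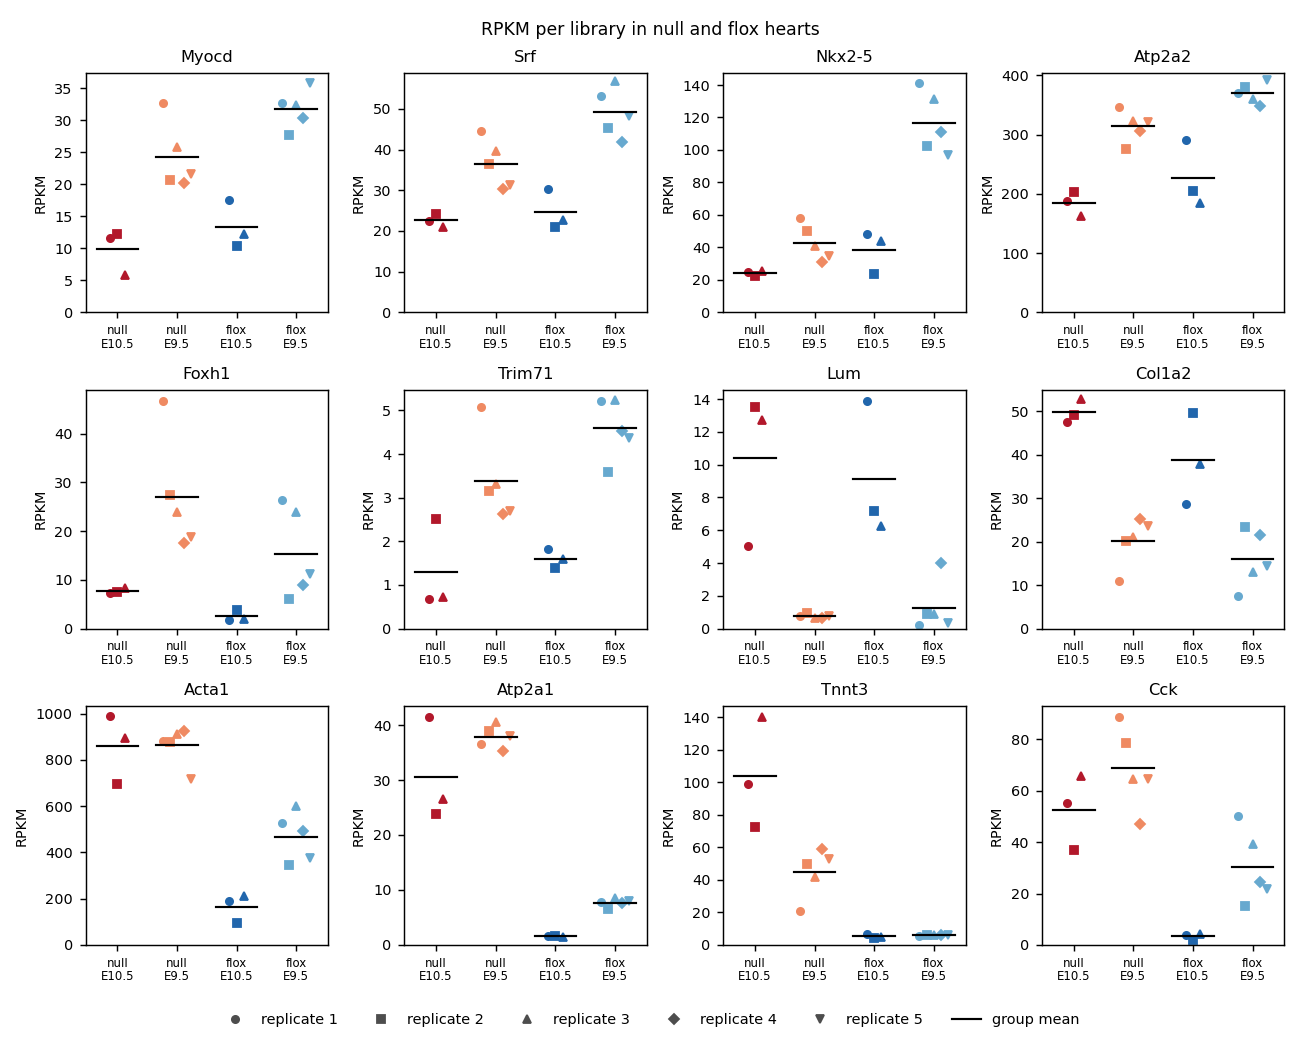
RPKM of 12 genes in each library, with null E10.5 and null E9.5 hearts left of flox E10.5 and flox E9.5 hearts, 1 symbol per replicate and a line at the group mean. Myocd, Srf, Nkx2-5, Atp2a2, Foxh1 and Trim71 are lower at E10.5 in both genotypes, and Lum and Col1a2 higher. Acta1, Atp2a1 and Cck keep most of their level in null hearts while flox E10.5 hearts lie far below flox E9.5 hearts.

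Flox hearts gave far more calls between the same stages, 51% of 13669 genes, 3906 higher (28.6%) and 3065 lower (22.4%), with a median SD of 0.155 at E10.5 and 0.134 at E9.5, so a call missing in null hearts is no sign of a difference from flox. That difference was tested as an interaction over all 16 libraries, in which a shift shared by all libraries of a table cancels. Of 13886 genes, 3.82% were called, of which 349 had a stage difference more positive in null than in flox hearts (2.51%) and 182 a more negative one (1.31%), with 3637 at an unadjusted p under 0.05. With libraries scaled to a common median these were 399 and 398. The count fell to 4 without flox E10.5 replicate 1, 9 without flox E10.5 replicate 2, 21 without null E9.5 replicate 5 and 58 without null E9.5 replicate 3, and was 118, 168, 146 and 120 without flox E9.5 replicates 1 to 4 and 305 without null E10.5 replicate 3. It was 1795, 810, 967 and 833 without null E10.5 replicate 2, null E10.5 replicate 1, flox E10.5 replicate 3 and null E9.5 replicate 4. Atp2a1, Apoe and Lmf2 alone were called with each of the 16 libraries left out.

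Atp2a1 (chromosome 7), the fast skeletal calcium pump SERCA1, was among the genes that null hearts held while flox hearts lost them. It held 41.5, 23.8 and 26.6 RPKM in null E10.5 hearts, against 36.5, 38.9, 40.6, 35.2 and 38.0 RPKM in null E9.5 hearts. In flox hearts it held 1.66, 1.54 and 1.5 RPKM at E10.5, against 6.53 to 8.59 RPKM at E9.5. The stage difference was -0.34 in null and -1.99 in flox hearts, and the interaction 1.64 (SE 0.194, adjusted p = 0.00428). Apoe, the lipid carrier apolipoprotein E, held 162, 136 and 149 RPKM in null E10.5 hearts, against 91.0 to 126 RPKM in null E9.5 hearts, and in flox hearts 44.4 to 52.4 RPKM at E10.5, against 75.2 to 107 RPKM at E9.5 (interaction 1.30, SE 0.180, adjusted p = 0.0122). Lmf2, a lipase maturation factor, held 12.2 to 14.2 RPKM in null E10.5 hearts, against 11.5 to 13.6 RPKM in null E9.5 hearts, and in flox hearts 8.13 to 10.0 RPKM at E10.5, against 15.6 to 18.2 RPKM at E9.5 (0.88, adjusted p = 0.0122). These 3, and the Acta1 and Slc16a3 values that follow, were chosen after their values were seen.

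Cck, the peptide hormone cholecystokinin, held 55.4, 36.9 and 65.6 RPKM in null E10.5 hearts, against 88.7, 78.5, 64.7, 47.2 and 64.5 RPKM in null E9.5 hearts, which overlapped. In flox hearts it held 4.05, 1.96 and 4.28 RPKM at E10.5, against 50.4, 15.3, 39.3, 24.5 and 21.6 RPKM at E9.5, and the interaction was 2.51 (adjusted p = 0.0236, called in 13 of 16 leave-outs). Skeletal muscle genes supplied 4 of the positive calls among 16 tested (2.51% of all genes), Acta1, Tnnt3, Tpm2 and Atp2a1. None of the 16 was negative, and the median interaction was 0.70 (all genes -0.00493). A positive median was not particular to this list. It was 0.65 for cardiomyocyte markers (no call), 0.42 for cardiac sarcomere genes (1 positive call) and 0.34 for smooth muscle genes (1 negative call). Acta1 had a stage difference of -0.01 in null and -1.55 in flox hearts, where it held 190, 94.5 and 211 RPKM at E10.5, against 346 to 599 RPKM at E9.5 (interaction 1.53, adjusted p = 0.0298, called in 9 of 16 leave-outs). Tnnt3 differed otherwise: it rose in null hearts and held 4.33 to 6.61 RPKM in flox E10.5 hearts, against 5.79 to 6.33 RPKM in flox E9.5 hearts (1.44, adjusted p = 0.047, called in 3 of 16).

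Glycolysis genes supplied 5 positive calls among 22 tested, Hk1, Pfkl, Aldoa, Gapdh and Eno1, and no negative one (median interaction 1.10). Positive calls made up 2.51% of all genes. None of the 5 was called in every leave-out. Gapdh and Eno1, whose reads are uncertain as stated above, were called in 13 and 12 of 16. The list median was 0.27 in null and -0.82 in flox hearts, where 11 members fell. Slc16a3, a lactate exporter, held 130, 117 and 99.0 RPKM in null E10.5 hearts, against 126 to 208 RPKM in null E9.5 hearts, and in flox hearts 48.8 to 57.8 RPKM at E10.5, against 154 to 285 RPKM at E9.5 (interaction 1.38, adjusted p = 0.0239, called in 12 of 16). Slc2a1, the glucose transporter GLUT1, held 550, 266 and 244 RPKM in null E10.5 hearts, against 374 to 737 RPKM in null E9.5 hearts, and its interaction of 1.03 was not called (adjusted p = 0.105). Null E10.5 replicate 1 and null E9.5 replicate 4 had the highest Ndrg1, Ndufa4l2 and Ier3 of their groups. Flox E9.5 replicate 4 stood apart too, with 3132 summed RPKM over the list, against 1791 to 2040 in the other flox E9.5 libraries. What part these libraries have in these values was not tested.

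Other genes rose in flox hearts and had no called stage difference in null hearts. Of these, Alx4 lay under the 0.5 RPKM filter in null hearts and so was not tested there. It passed the filter of the interaction mainly through flox E10.5, the group where it was high. Kif5c, a kinesin, held 2.92, 2.98 and 1.39 RPKM in null E10.5 hearts, against 3.22 to 5.09 RPKM in null E9.5 hearts, and in flox hearts 2.15 to 2.67 RPKM at E10.5, against 0.862 to 1.34 RPKM at E9.5 (interaction -1.40, adjusted p = 0.0239). Neto2, an auxiliary subunit of kainate receptors, held 1.96, 3.17 and 1.97 RPKM in null E10.5 hearts, against 1.98 to 3.43 RPKM in null E9.5 hearts, and in flox hearts 4.52 to 5.70 RPKM at E10.5, against 1.63 to 2.62 RPKM at E9.5 (-1.28, adjusted p = 0.0236). Alx4, a homeodomain factor, held under 0.5 RPKM in all null libraries (0.320, 0.387 and 0.465 RPKM at E10.5, against 0.185 to 0.454 RPKM at E9.5), and in flox hearts 1.69 to 4.99 RPKM at E10.5, against 0.188 to 0.834 RPKM at E9.5 (-1.90, adjusted p = 0.0239). These 3 were called in 12, 13 and 12 of 16 leave-outs, and lost their calls without flox E10.5 replicate 1 or 2 or null E9.5 replicate 5, and Alx4 and Kif5c also without null E9.5 replicate 3 (adjusted p up to 0.0725). Tgfbr1, the type I TGF-beta receptor, differed by -0.83 (adjusted p = 0.0252), chosen after its values were seen, and was called in 12 of 16. The other negative ones named were Ndnf (-1.14), Lix1 (-1.06), Mob1a (-1.05), Rdh10, a retinol dehydrogenase (-0.95), and Mex3c (-0.94).

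For most heart genes that fell in null hearts, the interaction was not called, which does not show that the genotypes change alike. Myocd differed by -1.29 in null and -1.25 in flox hearts, Atp2a2 by -0.77 and -0.73, Trim71 by -1.21 and -1.27, and Nkx2-5 by -0.79 and -1.64, with adjusted interaction p of 0.944, 0.915, 0.938 and 0.111. Nkx2-5 in flox hearts held 23.6 to 48.1 RPKM at E10.5, against 96.8 to 141 RPKM at E9.5. Of 27 cardiac sarcomere genes, 17 fell and 2 rose in flox hearts (median -0.60). No member of the cardiac transcription factor list or of the calcium handling and ion channel list had a called interaction. The calcium pump gene Atp2a1, which did, is in the skeletal muscle list.

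**Figure D4:**
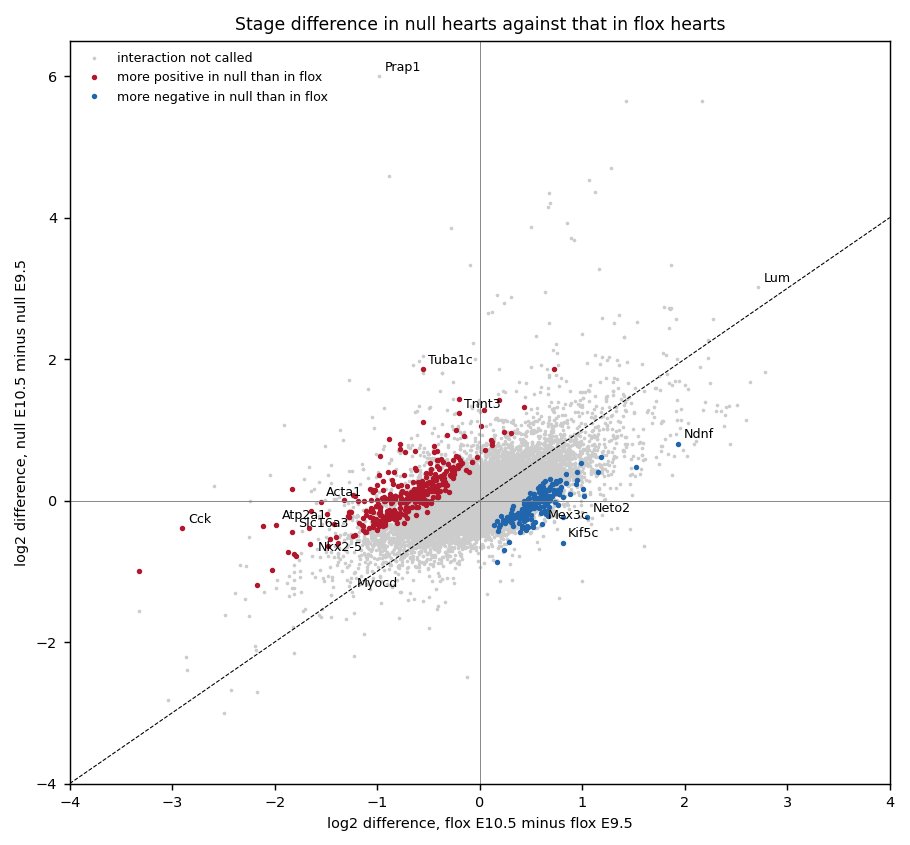
Each point is a gene, by its log2 stage difference in flox hearts (horizontal axis) and in null hearts (vertical axis), E10.5 minus E9.5. The dashed line marks equal differences. Red marks genes called with a more positive difference in null hearts and blue those with a more negative one. Of the 349 and 182 called, only genes tested in null hearts, in flox hearts and in the interaction are drawn, within the axis limits. Cck (-0.39 in null and -2.90 in flox hearts) and Atp2a1 lie far left of the line.

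**Figure D5:**
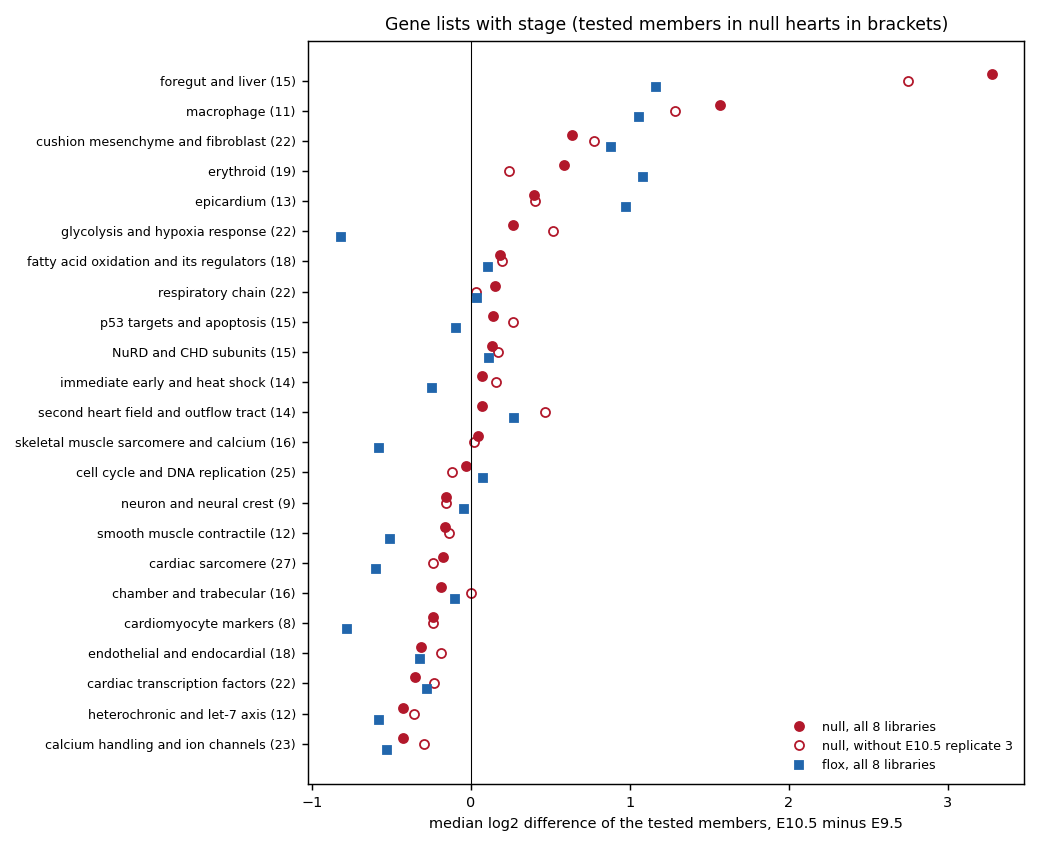
Median log2 difference between E10.5 and E9.5 over the tested members of each of 23 gene lists, in null hearts with all 8 libraries (filled red), in null hearts without E10.5 replicate 3 (open red) and in flox hearts (blue squares). The median of foregut and liver genes is 3.28 in null hearts, with 8 of 15 members tested only through E10.5, and calcium handling and heterochronic genes lie at -0.43. Glycolysis genes lie at 0.27 in null and -0.82 in flox hearts.

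CHD4 peaks were counted to describe where the enzyme sat in wild-type hearts at E10.0. The 3 lists held 84271, 60749 and 50232 peaks, of which 22824 of the first overlapped a peak in both others by at least 1 bp, and the lists come from 2 biological samples. Such a shared peak lay within 5 kb of 57.9% of the genes that rose in null hearts, of 81.8% of those that fell and of 71.2% of all tested genes. Over a RefSeq promoter it lay in 41.7%, 53.5% and 51.2%. Genes with a stage difference more positive in null than in flox hearts had a shared peak within 5 kb in 84.7% and over a promoter in 62.0%, and those with a more negative one in 64.4% and 48.6%. Longer genes offer more room for a peak and the fallen genes were longer, so these shares are a description with no test. Besides Srf and Nkx2-5, shared peaks lay over the promoters of Ttn (chr2:76982270-76982998), Cacna1c (chr6:119195863-119197221) and Ldb3 (chr14:34588522-34588925).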

How the data were processed

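Per the labels' protocols, libraries were made with a stranded polyadenylated RNA kit from Trizol RNA of embryonic hearts. Per the submitters' processing notes reads were handled on the mm10 build with tools that include HTSeq 0.6.2, MACS2, Bowtie 1.2.0 and DESeq2 1.6.3. The RPKM values and gene lengths are the authors' deposited values, and the columns headed as wild type in the tables were taken as the flox libraries of the same stage and number. No source used here says whether counting used strand. Multiplying RPKM by length and depth returned whole reads, within 0.01, for 100% of values. Peak positions and the peak score are those the authors deposited per library. The authors' deposited tables of comparisons were not used.

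The 2 tables were joined on the gene symbol. Values of log2(RPKM + 0.5) were fitted in limma 3.58.1 (R 4.3.3), using lmFit and a trended eBayes without covariates, on genes whose mean over the fitted libraries reached 0.5 RPKM: null E10.5 against null E9.5, the same in flox, and the interaction over all 16 libraries. Adjusted p-values of genes come from limma, two-sided, over all genes tested. No pair of libraries within a group was alike to within sampling noise (chi-square over its degrees of freedom at least 10.2). Ratios were compared by exact permutation. Lists are described by counts and medians. Other steps ran in Python 3.11.15 with pandas 2.3.3, scipy 1.17.1 and matplotlib 3.10.9. The fits were tested on simulated data.

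Named genes were Chd4, by log2 difference the top 12 rises and top 12 falls of called genes whose groups did not overlap and that averaged at least 1 RPKM in a group (predicted, small RNA, histone and sex-linked marker genes left out), 6 rises and 6 falls by RPKM difference, 8 interactions in each direction, and up to 3 members per list by smallest p. Members, lists and rule were chosen with earlier results of these data known. Another 54 genes were chosen after their values were seen, and those in the text are Acta1, Atp2a1, Apoe, Lmf2, Slc16a3, Slc2a1, Tnnc2, Tnni2, Gzmd, Gzmf, Gzmg, Mgp, Hspg2, Ryr2, Gja5, Myl2, Mybpc3, Nebl, Erbb4, Nppb, Has2, Col1a1, Emcn, Cdh5, Nfatc1, Slc8a1, Kcnj5, Ndufa4l2, Ier3, Wt1, Tbx18, Tbx5, Csf1r, Lyz2, Cx3cr1, Lin28a, Myh11 and Tgfbr1. Other list members named without values are those called. A few called list members are not reported here. Symbols were matched to RefSeq on GRCm38.p6, and 96.6% of tested genes had coordinates and 74.3% a promoter.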

Additional observations from a re-analysis of the deposited data

Results flagged for a closer look

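Of 166 genes looked at in the 5 null E9.5 libraries, 20 had 1 library farther from the rest than Dixon's 95% limit, where chance gives about 1 in 20. Replicate 4 was high in Ndrg1 (29.1 RPKM), Ndufa4l2 (55.8), Ier3 (59.2) and Nppb (502). Replicate 1 was high in Tdgf1 (6.53), Prtg (20.5), Trim71 (5.08) and Lin28a (56.2), and low in Emcn (22.2) and Wt1 (7.03). The other single libraries were those with Prap1 at 8.46, Aoc1 at 0.490, Ly6a at 0.588, Ndnf at 0.834, Mybph at 4.12, Hbb-bs at 285, Foxa1 at 0.252, Acta1 at 718, C3 at 1.94 and Lmf2 at 11.5 RPKM. What part these libraries have in the stage difference was not tested beyond leaving each out.

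The stage difference was more positive in null than in flox hearts, by limma's test of the difference itself, for Akr1c18 (3.24), Prl3b1 (2.59), Cck (2.51), Tuba1c (2.41), Mal2 (2.12), Rpph1 (1.76), Sct (1.67) and Cda (1.64), on the log2 scale. It was more negative for Alx4 (-1.90), Kif5c (-1.40), Neto2 (-1.28), Ndnf (-1.14), Lix1 (-1.06), Mob1a (-1.05), Rdh10 (-0.95) and Mex3c (-0.94). None of these genes, in either direction, was called in every leave-out. Akr1c18 and Mal2 passed the filter only with null E10.5 replicate 3 included. Akr1c18, Mal2 and Rpph1 were called in 5, 7 and 4 of 16 leave-outs.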

How the results depend on the processing

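Between null stages, 1225 genes were called. The count was 2539 with library weights, 113 with the erythroid level as a covariate, 3202 with the spread estimated over all 16 libraries, and 220 to 1525 with single libraries left out. Pseudocount, filter, median and quantile scaling, rescaling without erythroid genes, voom, robust variance and sex moved it by less than 1.5 times, and no called gene changed direction. The interaction, called for 531 genes, gave 797 with median scaling, 860 with quantile normalization, 301 with library weights, 903 with the length trend removed, 1918 without null E10.5 replicates 2 and 3, and 4 to 1795 with single libraries left out. The length and 2-library settings were chosen after seeing the data. The cause of these moves was not tested. Replicate numbers did not pair the samples (correlations of deviations -0.11, -0.13 and -0.07 in null hearts), and with the replicate number as a block 150 genes were called between null stages. Of 113 called values of named genes, 33 kept their call under that block, 27 with the erythroid covariate, 95 with the length trend removed and 41 without null E10.5 replicates 2 and 3. Stage and table cannot be told apart in any null comparison.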
